A study of Homo sapiens with 18 samples.

Results

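Ribosomal protein processed pseudogenes are copies of ribosomal protein mRNAs that were reverse transcribed and inserted elsewhere in the genome, without the introns of the gene they came from. The genes described here are the 87 of them with a mean of at least 2 CPM (read counts of a gene scaled to the library total) over 18 RNA-seq libraries of HEK293T cells. They were taken from 1279 genes that the deposited annotation lists as processed or transcribed processed pseudogenes under a ribosomal protein name, among 60675 human genes in the count table. Members were chosen by their measured mean level over all libraries, so the levels that follow describe the choice, whereas the differences between fractions and between lines were not used in it. The 87 pseudogenes derive by name from 40 parent genes, 49 from large-subunit and 38 from small-subunit ribosomal protein genes. In the annotation 79 are processed and 8 are transcribed processed pseudogenes.

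HEK293T is a human embryonic kidney line that carries SV40 large T antigen. All 18 libraries came from cells treated with 1 µg/mL doxycycline for 24 h, which induced a fusion of an m6A-binding protein (YTHDF1, YTHDF2 or YTHDF3) with the RNA-editing enzyme ADAR, and then with 100 µg/mL cycloheximide for 10 min, which holds ribosomes on mRNA. There were 3 lines (YTHDF1-ADAR, YTHDF2-ADAR and YTHDF3-ADAR) and 2 RNA fractions per line, with 3 libraries in each of the 6 groups. Polysome RNA was pooled from the sucrose gradient fractions that held more than 2 ribosomes, and total RNA was the input. No uninduced or ADAR-only library was analysed here, so each line is compared with its own total RNA or with the other lines. The labels do not say whether the libraries of a group came from separate cultures, or whether a line is a clone, so the p-values measure the spread between these libraries, which may be technical.

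Cytosolic ribosomal protein mRNAs are among the most abundant mRNAs of a growing cell. Most begin with a run of pyrimidines at the very 5′ end, the terminal oligopyrimidine (TOP) motif, and such mRNAs move together out of polysomes when growth signalling falls. A processed pseudogene starts as a copy of the spliced mRNA and usually lacks the parent's promoter, so its RNA, where made, is often driven from a neighbouring or host gene. Its sequence can stay close to that of the parent mRNA, which makes short reads hard to assign to one or the other. The labels do not say how reads that match both were counted, so every count of a pseudogene given here may hold reads of its parent and is uncertain in that respect.

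The start of 4 parent mRNAs is printed here because their pseudogene families differ in the comparison of polysome with total RNA. Each window holds 15 bases before the annotated RefSeq start and the first 10 bases of the transcript (GRCh38.p14, plus strand), with capitals marking an uninterrupted run of at least 8 C or T on the transcribed strand that covers the annotated start base.
RPSA: tttcctgccgcctgTCTTTTCCgtg
RPL41: cggaacttcgCCTTTCTCTCggcct
RPL21: cggccccgCCTCTTTCCTTTCggcc
RPS26: gagacacataacctcgattttcttc
The windows lie at chr3:39406705-39406729 (RPSA), chr12:56116618-56116642 (RPL41), chr13:27251543-27251567 (RPL21) and chr12:56041903-56041927 (RPS26). The runs were 8 bases in RPSA, 10 in RPL41 and 13 in RPL21, and the RPS26 window had no such run over its annotated start. A run of 9 C or T, of which the window prints 8 in lower case, begins 2 bases downstream of the annotated RPS26 start base. Of the 34 parents with a RefSeq promoter sequence, 19 (55.9%) had such a run, against 1311 (4.80%) of 27305 promoters of the same length, taken as 1 per symbol. RPS2 and the pseudogenes themselves had no entry. A run in this window is a description of the letters at the annotated start and not a measured start site.

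The library totals ranged from 42.7 to 67.5 M counts. The YTHDF mRNA named by the line's label was highest in that line. YTHDF1 averaged 321 CPM in the total RNA of its own line against 70.7 and 66.4 in the other lines. YTHDF2 averaged 235 against 121 and 125, and YTHDF3 74.7 against 46.5 and 44.0. ADARB1, an RNA-editing enzyme gene, was very uneven between the lines. It averaged 203 CPM in YTHDF1-ADAR, 33.1 CPM in YTHDF2-ADAR and 1408 CPM in YTHDF3-ADAR total RNA, and the cause was not tested. Of the HEK293T markers, VIM was at 211 to 412 CPM, NEFM at 106 to 958 and NEFL at 96.1 to 396 over the libraries. KRT18 was at 15.9 to 49.5 CPM and KRT8 at 9.66 to 41.96 CPM. PAX2 was low, at 2.88 to 9.13 CPM, and EPCAM, at 0.300 to 2.23 CPM, overlapped the range of the markers named next. The leukocyte, erythroid, hepatocyte and endothelial markers PTPRC, HBB, ALB and CDH5 reached at most 0.609 CPM in any library, and the fibroblast marker COL1A1, at 5.17 to 32.8 CPM, was highest in the YTHDF3-ADAR line. In bulk RNA, fewer cells of a type and less RNA per cell cannot be told apart, and all levels are relative to the rest of the library.

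The mean level of the 87 pseudogenes ranged from 2.02 CPM for RPS26P31 to 520 CPM for RPS2P5, with a median of 11.7 CPM. RPS2P5 alone held 19.8% of the counts of all 87, and the 5 highest members held 42.5%. A level of at least 20 CPM was found for 33 members and a level under 5 CPM for 29. The smallest count of any member in any library was 26, so none was at 0. Of the ribosomal protein pseudogenes below the threshold, which number 1192, 866 averaged under 0.1 CPM and 204 had no count in any library. The members just inside the threshold were RPS26P31 (2.02 CPM) and RPS11P5 (2.07 CPM), and those just outside were RPL5P4 (1.99 CPM) and RPL15P5 (1.90 CPM). Together the 87 took 94.5% of the counts of all ribosomal protein processed pseudogenes.

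The highest members were copies of both subunits. RPS2P5 (chr12:118246084-118246962, plus strand, GRCh38) is 879 bases long and lies antisense within an intron of TAOK3, a protein kinase gene. It derives from RPS2, a small-subunit protein close to the mRNA entry channel. RPL41P1 (chr20:21755270-21755350, plus strand) averaged 197 CPM over only 81 annotated bases and overlaps no other annotated gene. Its parent RPL41 encodes one of the shortest proteins of the ribosome. RPL6P27 (chr18:6462144-6463015, minus strand), a transcribed copy of the large-subunit gene RPL6, averaged 180 CPM. Its 3 annotated exon entries leave no gap over its 872 bases. RPL39P3 (chr6:73373108-73373263, minus strand) averaged 121 CPM over 156 bases and lies in an intron of OOEP on the same strand. Its parent RPL39 encodes a small protein in the wall of the nascent peptide exit tunnel. The next 6 were RPS2P46 at 91.2, RPL15P3 at 90.1, RPS3AP6 at 81.0, RPL18AP3 at 71.5, RPS28P7 at 61.5 and RPS2P55 at 57.8 CPM.

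Compared per kilobase of annotated exon, the members stood at a median of 9.94% of their parent's mean CPM per kb. The lowest was 0.480%, 2 members were under 1%, and 43 were at 10% or more. RPL41P1 was at 453% of RPL41, RPL39P3 at 366% of RPL39 and RPS2P5 at 74.7% of RPS2. These percentages depend on the annotated length of the parent, which counts the exons of all its isoforms: RPL41 is listed with 1108 bases, so its level per kb is low for so short an mRNA. As a share of the parent's counts, with no length in it, RPL41P1 was at 33.1%, RPS2P5 at 27.5%, RPL39P3 at 26.8% and RPL6P27 at 20.7%.

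**Figure D1:**
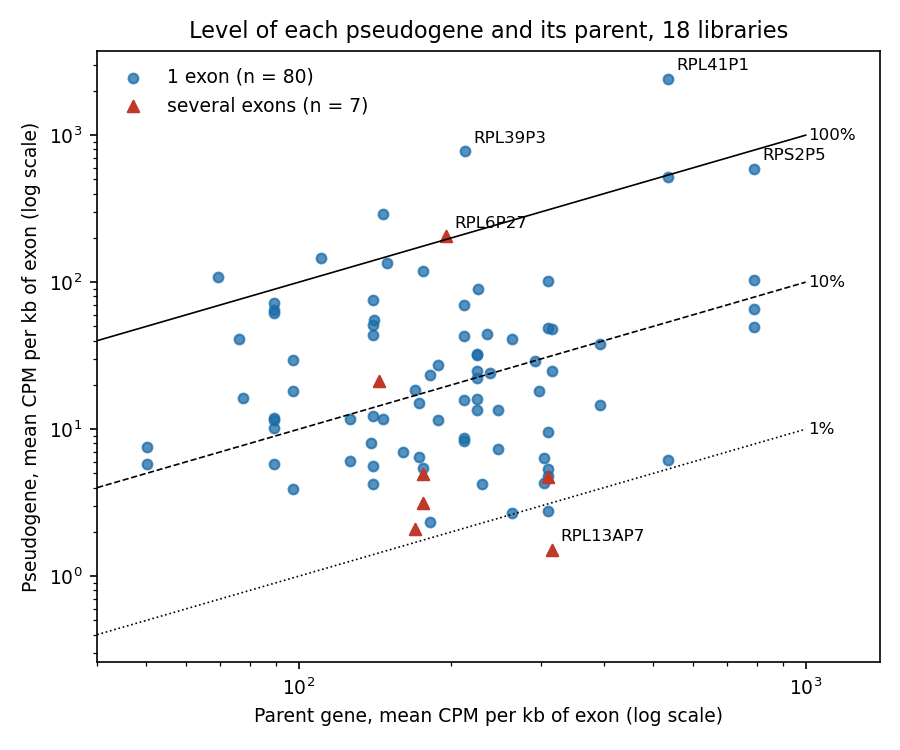
Mean CPM per kb of exon over 18 libraries, for each pseudogene (y axis, log scale) and its parent gene (x axis, log scale). Circles are the 80 members with 1 annotated exon entry and triangles the 7 with several, which leave no gap in RPL6P27 and RPS27AP16. The lines mark 100%, 10% and 1% of the parent. Most members lie between the 1% and 100% lines around a median of 9.94%, and RPL41P1 and RPL39P3 are the farthest above the 100% line.

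The members lay on 22 chromosomes and had a median annotated length of 585 bases, from 78 to 2128. A single exon entry was annotated for 80 of them and several for 7. Among those with several, RPL6P27 and RPS27AP16 have an exon length equal to their span (872 and 566 bases). Their entries therefore leave no gap. There was no other annotated gene over 40 members. The other members overlapped 1 or more genes, and, counting each once with exon overlap first, 22 lay antisense within an intron, 14 in the sense direction within an intron, 7 antisense to an exon and 4 in the sense direction over an exon. Those 4 include RPL32P29 in an exon of RPS29 and RPS26P19 in an exon of POLR2D. Reads of the host gene's exon cannot be told apart from reads of these 4 pseudogenes. The same may hold for the 7 antisense to an exon, since the strand setting of the counting is unknown. Families were uneven: RPS26 had 7 members, RPSA and RPL21 6 each, RPS3A and RPL7 5 each, RPS2 and RPL23A 4 each, and RPL41, RPL13A and RPS7 3 each. The RPS2 family summed to 713 CPM, the RPL41 family to 240 CPM and the RPS26 family to 82.9 CPM.

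In the YTHDF1-ADAR line, 5 of the 87 pseudogenes were higher in polysome RNA than in total RNA and 8 were lower (edgeR quasi-likelihood test, adjusted p under 0.05 over 26804 genes). Among all genes tested, 9.27% were higher and 11.9% lower, so neither share of the members (5.75% and 9.20%) was above the background. The 8 lower members were copies of RPS2, RPSA and RPL41, and the 5 higher were RPL26P30, RPL14P1, RPS7P1, RPS7P11 and RPL7P21. The median log2 difference of the members was 0.24, with 61 above 0, against 0.03 for all genes and 0.13 for the 40 parents. With the replicate number as a block, 11 were higher and 11 lower. Without normalization factors the split was 57 higher and 2 lower, and the median of all genes was then 0.46. For these and all later alternative fits the share of all genes called is not given. Their counts of members therefore have no background. Leaving out 1 library gave 0 to 6 higher and 2 to 6 lower, with 0 higher and 4 lower without polysome replicate 2, and 2 lower without total replicate 2.

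In the YTHDF2-ADAR line, 2 members were higher (background 6.71%) and 8 were lower (background 9.04%). The 2 higher were RPS7P1 and RPS7P11, and the 8 lower were again copies of RPS2, RPSA and RPL41. The median log2 difference was 0.09, against 0.03 for all genes and 0.11 for the parents. The blocked fit gave 6 higher and 11 lower, and the fit without normalization factors 33 higher and 5 lower. In the latter fit the median of all genes was 0.40. Leaving out total replicate 2 or 3, or polysome replicate 2 or 3, left 0 higher, and leaving out total replicate 1 or polysome replicate 2 left 4 lower.

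In the YTHDF3-ADAR line, 32 members were lower in polysome RNA and 3 were higher. Among all genes tested, 12.1% were lower and 8.01% higher, against 36.8% and 3.45% of the members. The members' median log2 difference was -0.52, with 76 of 87 below 0, and that of all genes was -0.05. Of the 40 parents, 31 were lower and 0 higher, with a median of -0.66. Of the 322 other processed pseudogenes with a mean of at least 2 CPM, 55 were lower and 31 higher, with a median of 0.03. Their levels were not otherwise matched to those of the members. The 3 higher members were RPL26P30, RPL23AP53 and RPL7P21. The 32 lower members held 18 copies of large-subunit genes, out of 49, and 14 of small-subunit genes, out of 38.

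The count in the YTHDF3-ADAR line rested on the spread shared by all 18 libraries and on 1 library in part. Fitted on the 6 YTHDF3-ADAR libraries alone, 3 members were lower and 0 higher, namely RPS2P5, RPS2P55 and RPSAP12. Without polysome replicate 2, 21 members were lower, all of them among the 32, and the median was -0.27. Without polysome replicate 1, 48 were lower, and 31 of the 32 were among them. The fit without normalization factors gave 20 lower and 5 higher, with the median of all genes at 0.25. No member was higher without total replicate 2 or 3, or without polysome replicate 2 or 3.

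Within the same-numbered polysome and total RNA libraries, the median log2 difference of the members was 0.02, 0.43 and 0.14 in the YTHDF1-ADAR line and -0.07, 0.12 and 0.20 in the YTHDF2-ADAR line, for replicates 1, 2 and 3. In the YTHDF3-ADAR line it was -0.17, -1.13 and -0.40, so all 3 pairs were below 0 and the pair of replicate 2 was farthest below. The parents' medians in that line were 0.03, -1.33 and -0.74, and those of the other processed pseudogenes were 0.02, -0.02 and 0.08. The 3 pairs therefore spread widely for the parents and for their copies, and little for pseudogenes of other origin.

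**Figure D2:**
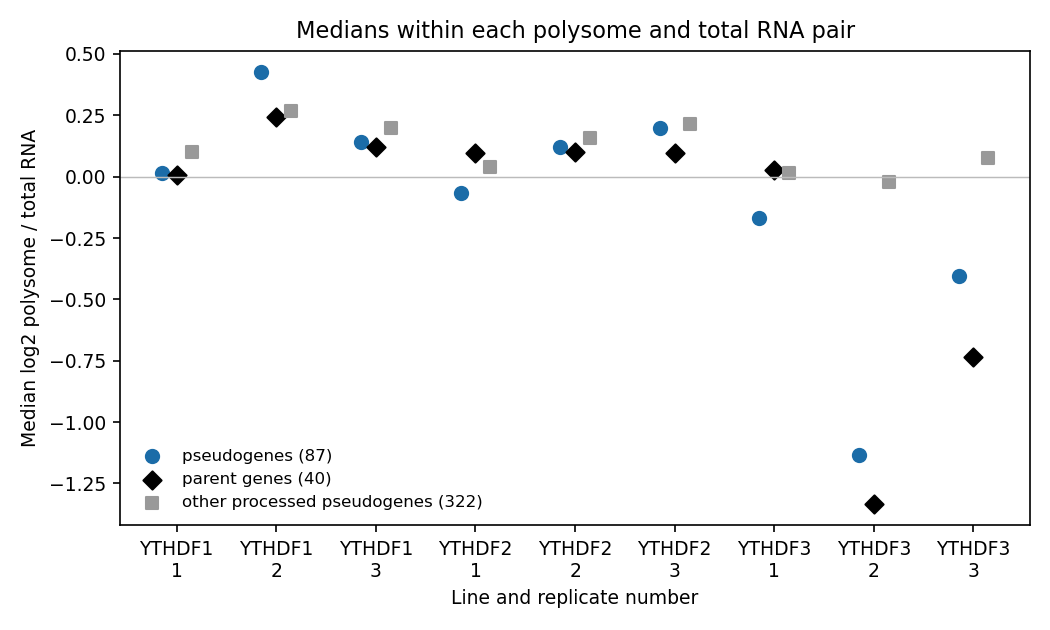
Median log2 ratio of polysome to total RNA (y axis) within each same-numbered pair of libraries (x axis: line and replicate number) for the 87 pseudogenes, their 40 parents and 322 other processed pseudogenes. The YTHDF3-ADAR pairs spread from -0.17 to -1.13 for the pseudogenes and from 0.03 to -1.33 for the parents, while the other processed pseudogenes stay between -0.02 and 0.27 in all 9 pairs.

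RPS2P5 had 753.5, 843.5 and 678.0 scaled CPM in the total RNA libraries of the YTHDF1-ADAR line and 320.5, 340.4 and 293.3 in its polysome libraries. Scaled CPM are CPM after the trimmed-mean (TMM) normalization of library sizes. The YTHDF2-ADAR line had 854.4, 673.1 and 762.9 in total RNA and 360.5, 294.0 and 301.9 on polysomes, and the YTHDF3-ADAR line 711.1, 970.9 and 936.3 against 264.9, 152.7 and 314.9. All 9 polysome libraries were below all 9 total RNA libraries, and the lowest was YTHDF3-ADAR polysome replicate 2. The log2 differences were -1.25 ± 0.20 (SE, n = 3 per fraction; edgeR adjusted p = 0.000568), -1.26 ± 0.20 (adjusted p = 0.000711) and -1.84 ± 0.21 (adjusted p = 2.92e-05). RPS2 itself gave -1.24, -1.21 and -1.76, and the counts of RPS2P5 were 25.4% to 28.8% of those of RPS2 in each of the 18 libraries, with a coefficient of variation of 3.41%.

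RPS2P55 (chrX:40934982-40935864) had the lowest polysome differences of any member, at -1.76 ± 0.35 (edgeR adjusted p = 0.00247), -1.53 ± 0.35 (adjusted p = 0.00735) and -2.26 ± 0.36 (adjusted p = 0.000527) in the 3 lines. Its libraries within a group spread more, from 67.7 to 160 scaled CPM in the total RNA of the YTHDF1-ADAR line, yet no polysome library reached any total RNA library of its line. RPS2P46 was at -0.96, -1.17 and -1.58 and was lower in all 3 lines. RPS2P7 was lower in the YTHDF3-ADAR line alone (-1.55 ± 0.39, edgeR adjusted p = 0.0106) and was at -0.64 and -0.72 in the others, which missed the threshold.

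RPL41P1 had 304.7, 304.3 and 266.4 scaled CPM in YTHDF1-ADAR total RNA and 143.7, 139.9 and 158.0 on polysomes. In the YTHDF2-ADAR line it had 323.8, 250.04 and 289.6 against 161.4, 150.4 and 122.1, and in the YTHDF3-ADAR line 233.7, 287.7 and 275.6 against 105.9, 41.8 and 137.8. The fractions did not overlap in any line. The log2 differences were -0.99 ± 0.27 (edgeR adjusted p = 0.018), -0.99 ± 0.27 (adjusted p = 0.0215) and -1.48 ± 0.28 (adjusted p = 0.00179). With the replicate block the first 2 missed the threshold (adjusted p = 0.0569 and 0.0639). RPL41 was at -0.59 (adjusted p = 0.113), -0.66 (adjusted p = 0.0941) and -1.18 (adjusted p = 0.00487), so the copy was below its parent. RPL41P1 amounted to 33.3% to 40.4% of the RPL41 counts in total RNA and to 25.3% to 32.1% on polysomes, ranges that did not overlap.

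The other RPL41 copies, RPL41P5 at 78 bases and RPL41P2 at 409 bases, were also lower on polysomes in every line. RPL41P5 was at -1.09, -1.26 and -1.44, and the first of these missed the threshold with the block (adjusted p = 0.0622). RPL41P2, at 0.855 to 4.40 scaled CPM one of the least abundant members, was at -0.86 (edgeR adjusted p = 0.0403), -1.12 (adjusted p = 0.014) and -0.84 (adjusted p = 0.0471). The first of these calls was lost in 7 of 12 alternative fits and the third in 8 of 12. RPL41P2 lies antisense in an intron of a protein-coding gene that was itself lower on polysomes in all 3 lines, at -1.30, -1.11 and -1.08, and the part of that gene's reads in the result was not tested.

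RPSAP12 (chr12:68552995-68553882) derives from RPSA, a small-subunit protein also known as the laminin receptor. It had 34.1, 47.1 and 32.9 scaled CPM in YTHDF1-ADAR total RNA against 16.9, 25.3 and 19.6 on polysomes, and 46.2, 34.3 and 35.8 against 21.0, 20.4 and 20.2 in the YTHDF2-ADAR line. Its YTHDF3-ADAR libraries had 50.5, 44.3 and 42.9 against 17.2, 9.39 and 18.5. No polysome library reached a total RNA library of its line. The log2 differences were -0.89 ± 0.21 (edgeR adjusted p = 0.00861), -0.92 (adjusted p = 0.00882) and -1.61 ± 0.22 (adjusted p = 0.000147), with RPSA at -0.69, -0.64 and -1.42.

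**Figure D3:**
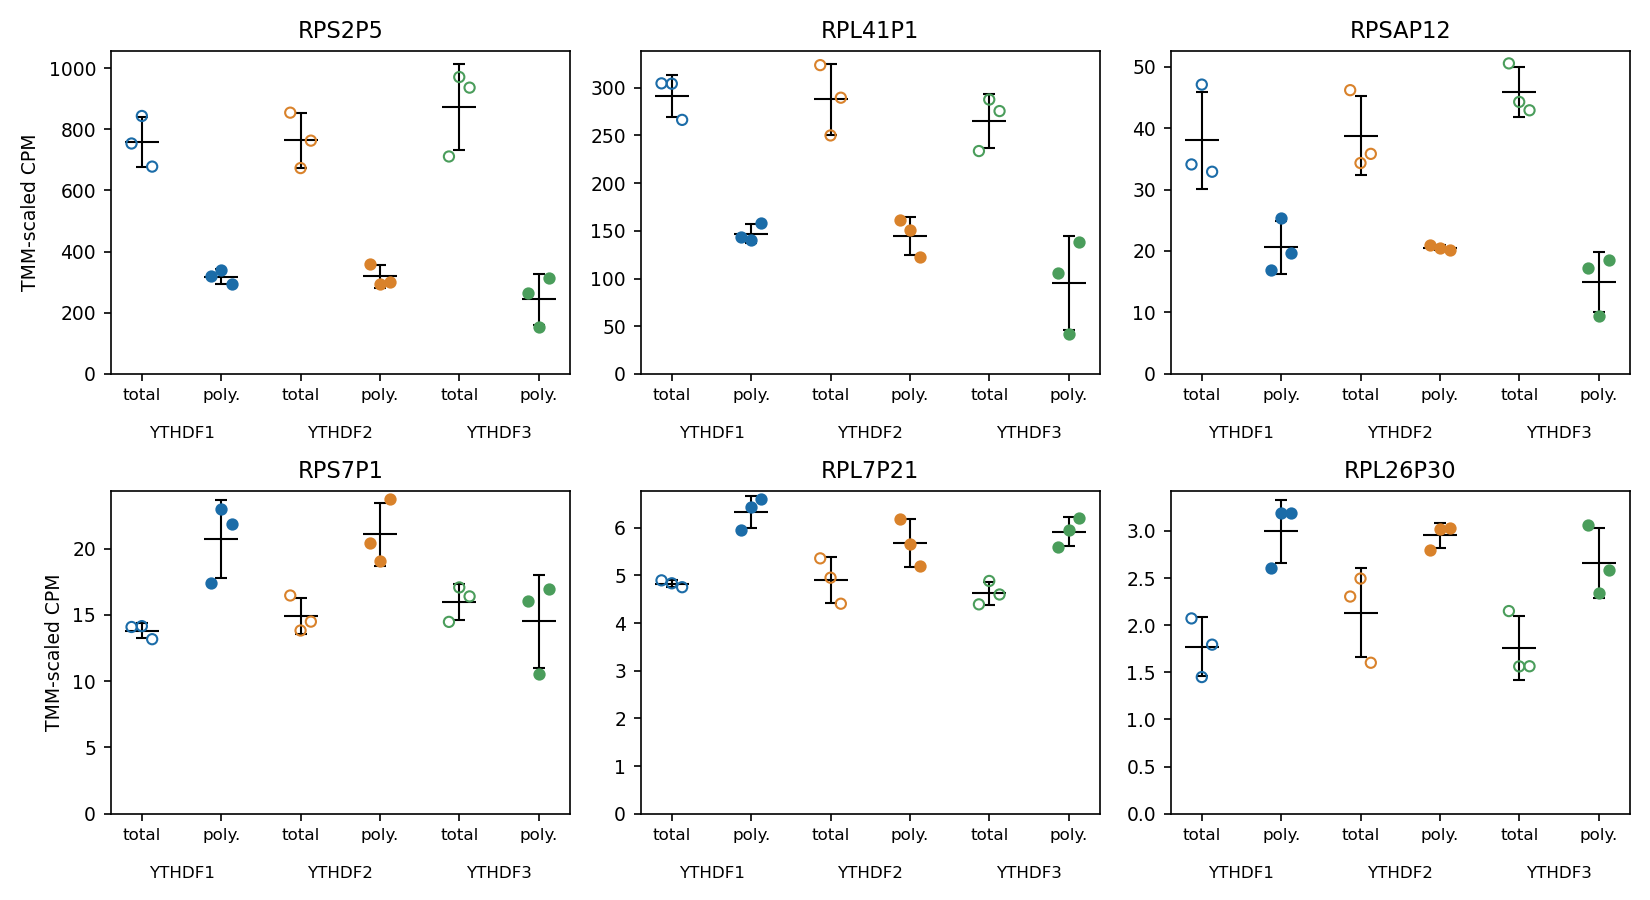
TMM-scaled CPM (y axis, from 0) of 6 pseudogenes in each library, by line and fraction (x axis; open circles total RNA, filled circles polysome RNA), with the mean and SD of each group of 3. RPS2P5, RPL41P1 and RPSAP12 are lower on polysomes in every line without overlap, whereas RPS7P1 is higher in the first 2 lines, and RPL7P21 and RPL26P30 are called higher in the YTHDF1-ADAR and YTHDF3-ADAR lines.

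RPS7P1 (chr17:28467822-28468406), a copy of the small-subunit gene RPS7, had 14.1, 14.2 and 13.2 scaled CPM in YTHDF1-ADAR total RNA and 17.4, 23.0 and 21.8 on polysomes. In the YTHDF2-ADAR line the values were 16.5, 13.8 and 14.5 against 20.4, 19.1 and 23.7. The fractions did not overlap in these lines, and the differences were 0.59 ± 0.16 (edgeR adjusted p = 0.0155) and 0.50 (adjusted p = 0.0418). It was at -0.14 (adjusted p = 0.596) in the YTHDF3-ADAR line. RPS7 was at 0.31 and 0.29 in the first 2 lines, which missed the threshold, and at -0.21 in the third. RPS7P11, within an intron of NSF on the other strand, was at 0.42 (adjusted p = 0.0403), 0.52 (adjusted p = 0.0169) and 0.02.

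RPL14P1 (chr12:62965325-62965969) had 17.6, 16.9 and 17.4 scaled CPM in YTHDF1-ADAR total RNA against 25.6, 31.3 and 29.6 on polysomes. The difference there was 0.74 ± 0.19 (edgeR adjusted p = 0.0134), and in the other lines it was 0.55 (adjusted p = 0.0635) and 0.02. RPL14, a large-subunit gene, was at 0.29, 0.20 and -0.38. RPL7P21 (chr5:143332605-143333239), which lies antisense in an intron of the glucocorticoid receptor gene NR3C1, had 4.90, 4.83 and 4.75 scaled CPM in YTHDF1-ADAR total RNA against 5.95, 6.43 and 6.60 on polysomes. In the YTHDF3-ADAR line it had 4.39, 4.88 and 4.60 against 5.60, 5.94 and 6.20. The fractions did not overlap in either line. The differences were 0.39 ± 0.12 (edgeR adjusted p = 0.0247), 0.21 (adjusted p = 0.242) and 0.36 (adjusted p = 0.0385) in the 3 lines. RPL7 was at 0.08, 0.09 and -0.60, and NR3C1 at 0.45, 0.32 and 0.51.

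Copies of 1 parent spread less among themselves than the families did, with the RPS2, RPSA and RPL41 families included. Over the 10 families with at least 3 members, which hold 46 pseudogenes, the SD of the log2 difference within a family had a median of 0.16, 0.19 and 0.25 in the YTHDF1-ADAR, YTHDF2-ADAR and YTHDF3-ADAR lines, and the SD of the family medians was 0.63, 0.63 and 0.59. The SD of the family medians was not computed without the RPS2, RPSA and RPL41 families, so it may rest on them. These are descriptions, since copies of 1 parent share sequence and may share reads. The RPS2 family had 3, 3 and 4 of 4 members lower in the 3 lines, with medians of -1.11, -1.21 and -1.71. The RPSA family had 2, 2 and 6 of 6 lower, with medians of -0.46, -0.53 and -1.18, and with the replicate block 5, 4 and 6 were lower. All 3 RPL41 copies were lower in every line, and with the block 1, 2 and 3 of them were. From the libraries of each line alone, 3, 3 and 2 RPS2 copies and 6, 6 and 1 RPSA copies were lower. For RPL41 the counts were then 3, 3 and 0.

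The RPL21 family stood out only in the YTHDF3-ADAR line in its counts, with 5 of 6 members lower there (median -0.70) and 0 called in the other lines (medians 0.21 and 0.00). With the replicate block 4 of 6 were lower, since RPL21P28 missed the threshold (edgeR adjusted p = 0.0584). On the YTHDF3-ADAR libraries alone 0 of 6 were lower. RPL21 itself, a large-subunit gene, was at -0.03, -0.07 and -0.75. The RPS26 family of 7 had no call in any line, with medians of 0.58, 0.49 and -0.11. RPS26, a small-subunit protein that contacts mRNA near the exit channel, was at 0.16, 0.15 and -0.06. Its copy RPS26P8 was at 0.80 ± 0.32 (edgeR adjusted p = 0.0838), 0.83 (adjusted p = 0.0918) and 0.42 and passed the threshold with the replicate block in the first 2 lines (adjusted p = 0.0256 and 0.0221), as did RPS26P6 (adjusted p = 0.0392 and 0.0455). The 5 copies of RPS3A also had no call in any line. Fitted on the 6 libraries of each line alone, 2, 3 and 0 RPS26 copies and 2, 1 and 0 RPS3A copies were higher.

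**Figure D4:**
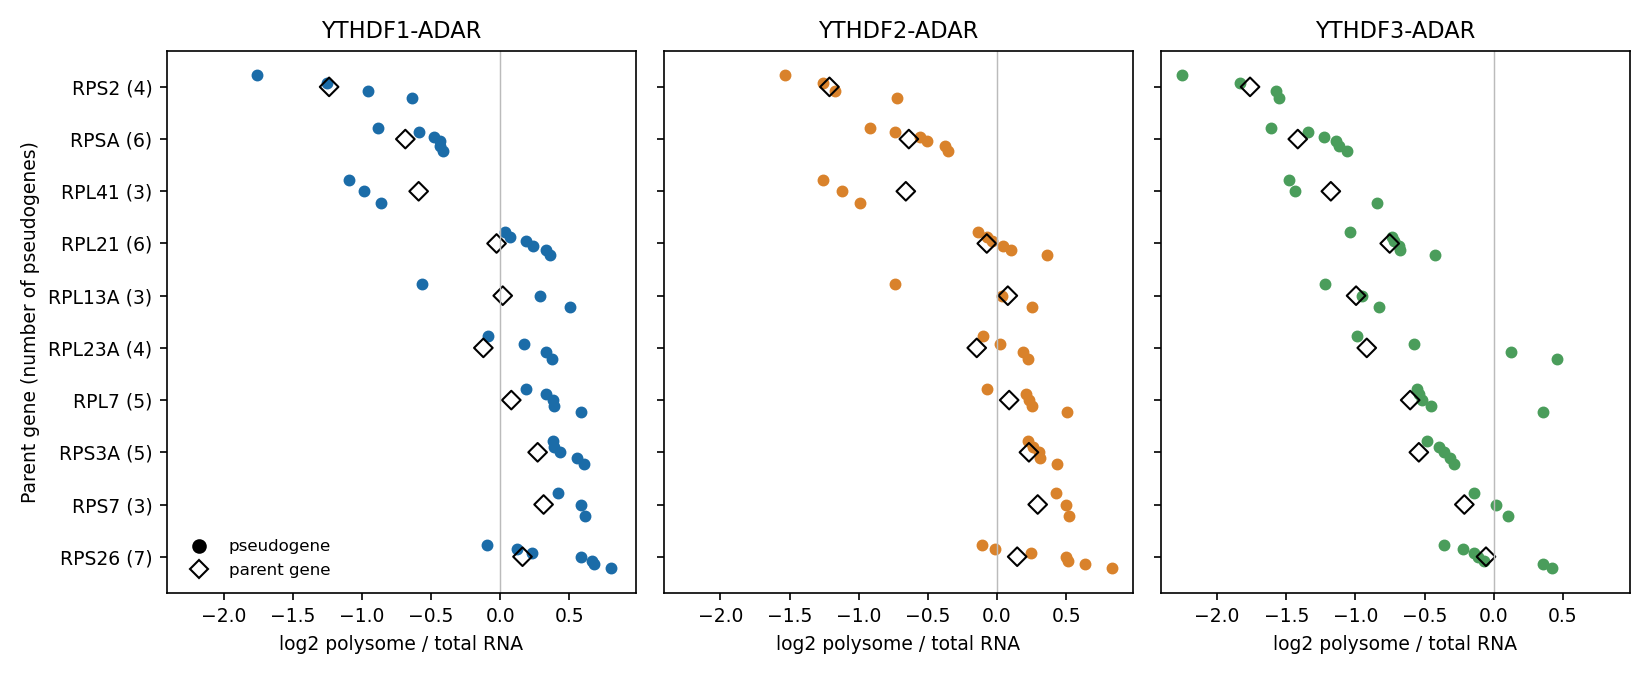
Log2 ratio of polysome to total RNA (x axis, the same in all panels) of each pseudogene (circles) and of the parent gene (diamonds) for the 10 families with at least 3 members (y axis), in 1 panel per line. The RPS2, RPSA and RPL41 families lie left of 0 in each line, while the RPS26 family, with medians of 0.58, 0.49 and -0.11, spreads to both sides of it.

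Measured against the parent gene, most copies had a similar difference between fractions. The difference of a member minus that of its parent had a median of 0.16, 0.04 and 0.11 on the log2 scale in the 3 lines, and it was within 0.25 for 44, 59 and 59 of the 87. The counts of a member as a share of its parent's counts varied less over the 18 libraries than the member's own level in 80 of 87 cases, with a median coefficient of variation of 14.99% against 23.8%. Across the 87 members, Pearson's r between the member's and the parent's difference was 0.83, 0.83 and 0.76. Without the RPS2, RPSA and RPL41 families, left out after their values were seen, it was 0.45, 0.45 and 0.51 over 74 members. These correlations are across genes that share libraries, parents and possibly reads, and are given as descriptions.

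Of the 32 lower members in the YTHDF3-ADAR line, 31 had a parent that was lower too. Among all 87 members, called or not, 68 had such a parent. Of those 68 copies, 63 had a difference below 0, as did most of the 87 members. Members and parents were called in opposite directions in 3 cases, which are the 3 members that were higher. In the YTHDF1-ADAR and YTHDF2-ADAR lines there was no such pair.

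**Figure D5:**
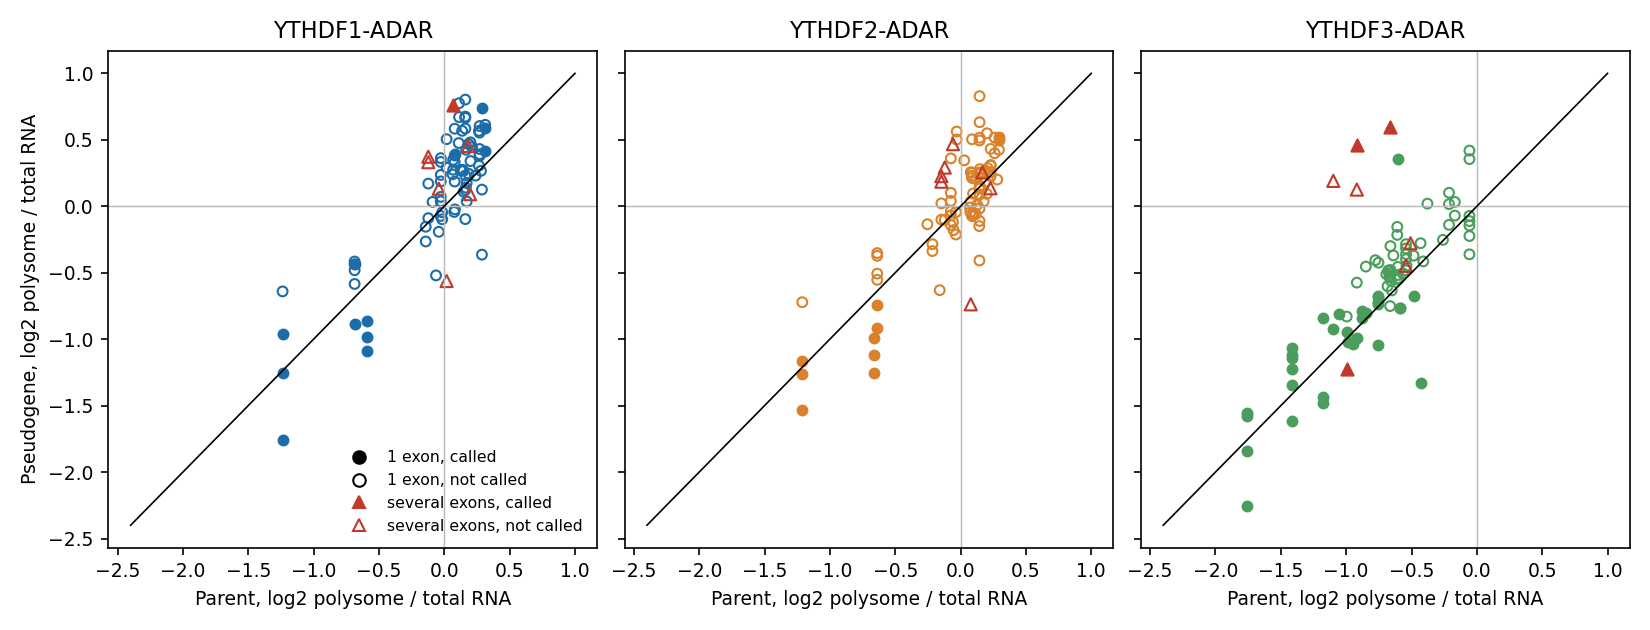
Log2 ratio of polysome to total RNA of each pseudogene (y axis) against that of its parent (x axis), in 1 panel per line. Filled symbols passed the adjusted p threshold, and the diagonal marks equal differences. Triangles are the 7 members with several annotated exon entries, which leave no gap in RPL6P27 and RPS27AP16. Most circles follow the diagonal, and in the YTHDF3-ADAR panel 4 triangles lie more than 1 above it.

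In the YTHDF3-ADAR line 4 members were more than 1 above the parent on the log2 scale, namely RPL23AP53 (1.38), RPS18P9 (1.29), RPL26P30 (1.26) and RPL23AP7 (1.04), and all 4 have several exons. The other 3 with several exon entries were at 0.23 (RPL6P27), 0.09 (RPS27AP16) and -0.23 (RPL13AP7). The entries of RPL6P27 and RPS27AP16 leave no gap, whereas those of RPL13AP7 are separated, as in the 4 named above. The 80 members with 1 exon ranged from -0.90 (RPL32P29, which lies in an exon of RPS29) to 0.96 (RPL7P21), with a median of 0.10. No member was more than 1 from its parent in the other lines.

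RPL23AP53, a 7-exon pseudogene that overlaps an exon of ZNF596 on the other strand, had 2.53, 2.12 and 1.93 scaled CPM in YTHDF3-ADAR total RNA and 2.96, 2.92 and 3.17 on polysomes. The fractions did not overlap, and the difference was 0.46 ± 0.14 (edgeR adjusted p = 0.0317). Its parent RPL23A, which encodes a large-subunit protein at the tunnel exit, was at -0.92 (adjusted p = 0.000518). As a share of RPL23A counts it went from 0.357% to 0.564% in total RNA to between 0.889% and 1.39% on polysomes. RPL23AP7, with 6 exons over chr2:113610502-113627090, was at 0.13 ± 0.12 (adjusted p = 0.503) in that line, and its share of RPL23A counts was 1.63% to 2.09% in total RNA and 2.63% to 4.56% on polysomes.

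RPS18P9, with 4 exons over chr6:149592687-149601878 and antisense to an exon of KATNA1, had 6.78, 8.14 and 8.32 scaled CPM in YTHDF3-ADAR total RNA and 9.05, 8.92 and 8.55 on polysomes, without overlap. Its difference was 0.19 ± 0.11 (edgeR adjusted p = 0.235), while RPS18, a small-subunit gene, was at -1.10 (adjusted p = 0.00092). RPL26P30, with 3 exons over chr11:2335135-2347685 within an intron of CD81-AS1, had 2.07, 1.45 and 1.79 scaled CPM in YTHDF1-ADAR total RNA against 2.61, 3.19 and 3.19 on polysomes. In the YTHDF3-ADAR line it had 2.15, 1.56 and 1.57 against 3.07, 2.34 and 2.59, again without overlap. The differences were 0.76 ± 0.20 (edgeR adjusted p = 0.0135), 0.47 (adjusted p = 0.126, and 0.0455 with the replicate block) and 0.59 (adjusted p = 0.0446). RPL26 was at 0.06, -0.06 and -0.66.

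Among the highest members outside these families, RPL39P3 was lower in the YTHDF3-ADAR line (-1.02 ± 0.22, edgeR adjusted p = 0.00424) and at 0.03 and -0.14 in the others. RPL39 followed the same order, at -0.09, -0.25 and -0.99. RPL18AP3, within an intron of TXNRD1 on the same strand, was at -0.07, -0.18 and -1.04 (adjusted p = 0.00543 in the YTHDF3-ADAR line). TXNRD1 was higher on polysomes in all 3 lines, at 0.37, 0.39 and 0.42. RPS28P7 was at -0.76 (adjusted p = 0.0216) in the YTHDF3-ADAR line, which missed the threshold with the block (adjusted p = 0.0502). RPL6P27 was at 0.45, 0.25 and -0.28, RPL15P3 at 0.23, 0.09 and -0.41, and RPS3AP6 at 0.38, 0.31 and -0.48, and none of these passed the threshold in any line.

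Over all 87 members, 7 were lower in all 3 lines and none was higher in all 3. The matching shares of all genes, for calls in all 3 lines or in 1 line alone, were not computed. Such counts of members therefore have no background here. The 7 were RPS2P5, RPS2P46, RPS2P55, RPL41P1, RPL41P2, RPL41P5 and RPSAP12. With the replicate block 9 were lower in all 3 lines, among them RPS11P5, RPL13AP7, RPSAP15 and RPSAP19 but neither RPL41P1 nor RPL41P5. From the libraries of each line alone 3 were, namely RPS2P5, RPS2P55 and RPSAP12. A further 23 were lower in the YTHDF3-ADAR line alone, against 0 when each line was fitted on its own libraries, and 49 were called in no line. Every polysome library was above every total RNA library for 28, 23 and 4 members in the YTHDF1-ADAR, YTHDF2-ADAR and YTHDF3-ADAR lines, where 26.4%, 25.4% and 10.6% of all genes did so. The reverse held for 15, 15 and 39 members, against 22.3%, 21.5% and 15.2% of all genes. Of the ribosomal protein genes, with the parents among them, 36 of 47 large-subunit and 25 of 32 small-subunit genes were lower in the YTHDF3-ADAR line. Of the paralog genes, 1 of 8 was lower there, and of all genes 12.1% were.

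The lower calls of the YTHDF3-ADAR line were found in each kind of genome position. Among all genes tested, 12.1% were lower and 8.01% higher in that line. Fitted on its 6 libraries alone, 3 of the 32 lower calls were kept. The part of host-gene or parent reads in the calls was not tested. The lower calls of the main fit numbered 14 of the 40 members with no other gene over them. They numbered 6 of 22 that lie antisense in an intron and 6 of 14 that lie in the sense direction in an intron. Of the 7 members antisense to an exon 4 were lower, and of the 4 in the sense direction over an exon 2 were. The calls were also found at each level relative to the parent. Among the 21 members whose counts were at least 5% of the parent's, 11 were lower and 0 higher, with a median of -0.68. Among the 27 with under 1%, 8 were lower and 3 higher, with a median of -0.45. Among the 74 members outside the RPS2, RPSA and RPL41 families, 19 were lower and 3 higher in that line, and 0 were lower in the other lines. With the replicate block RPS11P5 (adjusted p = 0.0418 and 0.0178) and RPL13AP7 (adjusted p = 0.0394 and 0.0168) were lower in the YTHDF1-ADAR and YTHDF2-ADAR lines too.

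The polysome difference of the YTHDF3-ADAR line was not shown to differ from that of the other lines by the test of the difference itself. No member was called in any of the 3 contrasts between lines by edgeR or by DESeq2, and 0% of all 26804 genes were. At an unadjusted p under 0.05, 50 members had a lower polysome difference in the YTHDF3-ADAR line than in the YTHDF1-ADAR line (background 2.44%) and 33 than in the YTHDF2-ADAR line (background 2.22%), with 0 the other way (background 0.839% and 0.765%). The median differences between lines were -0.74 and -0.61 on the log2 scale. Between the YTHDF2-ADAR and YTHDF1-ADAR lines the median was -0.12, and 0 members passed the unadjusted p in either direction. Without YTHDF3-ADAR polysome replicate 1, 1 member was called lower in the YTHDF3-ADAR line than in the YTHDF1-ADAR line.

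As a share of all counts, the 87 members took 0.247% ± 0.0275 (SD, n = 3) of YTHDF1-ADAR total RNA and 0.273% ± 0.0283 of its polysome RNA, and 0.256% ± 0.0052 and 0.257% ± 0.0096 in the YTHDF2-ADAR line. The YTHDF3-ADAR line had 0.324% ± 0.0254 in total RNA and 0.200% ± 0.0662 on polysomes. Only in that line did the 2 fractions differ by more than the SD of both. Relative to the summed counts of the ribosomal protein genes, the members were at 6.69% ± 0.40, 6.56% ± 0.26 and 6.56% ± 0.50 (SD, n = 3) in total RNA. On polysomes they were at 5.36% ± 0.34, 5.06% ± 0.099 and 5.23% ± 0.87. These are ratios of sums, and RPS2P5 alone held 19.8% of the member counts. Taken 1 by 1, 61, 50 and 66 of the 87 members had a polysome difference above that of their parent in the 3 lines.

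In total RNA, no member differed between the YTHDF2-ADAR and YTHDF1-ADAR lines (background 0.545% higher and 1.28% lower). Between the YTHDF3-ADAR and YTHDF1-ADAR lines 5 members were higher, which is 5.75% against a background of 11.6%, and 1 was lower, against 6.52%. Between the YTHDF3-ADAR and YTHDF2-ADAR lines 2 were higher and 0 lower, against 15.2% and 7.57%. RPL3P4 and RPL3P2, copies of RPL3, a large-subunit protein next to the peptidyl transferase centre, were higher in both. RPL3P4 (chr14:98972879-98973301) had 13.1, 15.1 and 12.0 scaled CPM in YTHDF1-ADAR total RNA and 18.8, 27.5 and 26.8 in YTHDF3-ADAR total RNA, without overlap. Its difference was 0.86 ± 0.25 (edgeR adjusted p = 0.0243) against the YTHDF1-ADAR line and 0.80 (adjusted p = 0.0289) against the YTHDF2-ADAR line.

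RPL3P2 had 3.00, 2.72 and 1.74 scaled CPM in YTHDF1-ADAR total RNA and 3.95, 4.99 and 5.46 in YTHDF3-ADAR total RNA, a difference of 0.95 ± 0.26 (edgeR adjusted p = 0.0213). RPL13AP25, RPL13AP5 and RPL14P1 were higher against the YTHDF1-ADAR line, by 0.91 (adjusted p = 0.0415, and 0.0544 with the replicate block), 0.76 (adjusted p = 0.0381) and 0.73 (adjusted p = 0.0172). Their parents RPL3, RPL13A and RPL14 were higher in the same comparison, at 0.69, 0.72 and 0.56. RPL23AP53 was the lower member, at -0.61 ± 0.14 (adjusted p = 0.0093). On the 6 libraries compared alone, 1 member was higher and 0 lower. Leaving out 1 library gave 0 to 10 higher, with 0 without YTHDF1-ADAR total replicate 3 or YTHDF3-ADAR total replicate 2 or 3, 2 without YTHDF1-ADAR total replicate 1 or 2, and 10 without YTHDF3-ADAR total replicate 1. Without normalization factors 22 were higher and 0 lower, with the median of all genes at 0.25.

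The editing tables list A-to-G editing sites per gene, which are used to mark RNA bound by the YTHDF-ADAR fusion. In the authors' deposited tables of editing, none of the 87 pseudogenes was listed for any line, and neither was any of the 1279 ribosomal protein pseudogenes. The tables list 6858, 4547 and 7042 genes for the YTHDF1-ADAR, YTHDF2-ADAR and YTHDF3-ADAR lines, and no gene of any pseudogene class is among them, so a pseudogene missing from them says nothing of its editing. Of the 40 parents, 8, 5 and 8 are in the authors' deposited tables, where 33.4%, 22.1% and 34.1% of the tested genes with a symbol and 44.96%, 29.7% and 46.0% of the tested protein-coding genes are. In the authors' deposited table of the YTHDF3-ADAR line, RPL14 has 22 sites, with an editing score per site of 5.30% in total RNA and 6.19% on polysomes, and RPL5 has 13. RPS2, parent of the most abundant pseudogene, has 1, 1 and 2 sites in the authors' deposited tables. None of the parents has an adjusted p under 0.05 between fractions in the authors' deposited tables. RPS27AP5, which carries a pseudogene name but is annotated as protein coding and so is not a member, has 1, 3 and 2 sites there, and was named after its values were seen.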

How the data were processed

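Total and polysome RNA of the 3 HEK293T lines was depleted of ribosomal RNA and sequenced with a directional kit, per the labels' protocols. Reads were aligned with STAR 2.7.7 and counted per gene with featureCounts 2.0.1, with DESeq2 also used and GRCh38 as the build, per the submitters' processing notes. The strand setting of the counting and its treatment of reads with several matches are unknown here. The deposited table holds whole-number counts per gene in 18 libraries, with exon lengths, and the authors' table of 1 comparison, not named in its header, holds baseMean (normalised signal), log2 fold changes and p-values. That table supplied the gene classes. In the authors' deposited editing tables, each gene has a number of sites, an editing score per fraction, an adjusted p-value and a column headed log2 that matched the natural log of an odds ratio recomputed from the scores within 5.62e-08.

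Groups came from the labels. Levels are CPM, or TMM-scaled CPM where fractions are compared. All 18 libraries were fitted in 1 edgeR 4.0.16 quasi-likelihood model of 6 group means (R 4.3.3, limma 3.58.1) after filterByExpr with a minimum count of 10. This left 26804 genes, including all 87 members and 40 parents, and p-values were adjusted by the Benjamini-Hochberg method over all of them. One table row that names no human gene, at most 1.48e-05% of a library, was left out. Member and parent were also compared as a ratio of counts within a library, with a pseudocount of 0.5 for the medians within pairs. Alternatives were DESeq2 1.42.0, other size factors, other filters, a replicate block, the compared libraries alone and leaving out each library. On simulated YTHDF1-ADAR polysome and total RNA counts of 26224 genes, the model recovered 14.9%, 38.8% and 81.8% of genes changed 1.5-fold, 2-fold and 4-fold. No 2 libraries of the same group agreed within sampling noise, and libraries of different groups were not compared in this way.

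Within a line, libraries of both fractions with the same replicate number deviated together from their group means in all 9 pairs (r from 0.20 to 0.67). The numbers were therefore taken to pair the samples within a line, in the replicate block and in the medians within pairs. The main model left this pairing out. Some pairs with different numbers correlated higher: YTHDF3-ADAR polysome replicate 2 had r = 0.511 with total replicate 3 and 0.358 with total replicate 2, YTHDF1-ADAR polysome replicate 1 had 0.284 with total replicate 2 and 0.247 with total replicate 1, and YTHDF2-ADAR polysome replicate 3 had 0.212 with total replicate 1 and 0.20 with total replicate 3. The members and gene lists were chosen with earlier results of these data known. Named members are the 10 highest, the 5 highest and 5 lowest of the called ones per line, the 5 farthest above and 5 farthest below their parents, the 3 highest and 3 lowest called in total RNA, and those next to the threshold. Other members named are the rest of a family or of a small count.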

Additional observations from a re-analysis of the deposited data

How the results depend on the processing

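The counts of called members and the median member-to-parent ratios had 150 alternative values with no library left out. Of these, 120 stayed within 1.5 times the main count or within the SD of the pairs. The 120 include counts that were 0 in the main fit and stayed at 0, and the ratios were varied only in their pseudocount. They are therefore not the share of calls that held. In 792 alternative fits of the 66 calls of members, 0 had the opposite sign. Counts are given as higher and lower on polysomes for the YTHDF1-ADAR, YTHDF2-ADAR and YTHDF3-ADAR lines in turn, where the main counts were 5 and 8, 2 and 8, and 3 and 32. Without normalization factors they were 57 and 2, 33 and 5, and 5 and 20. That setting moved the median of all genes from 0.03, 0.03 and -0.05 to 0.46, 0.40 and 0.25 on the log2 scale, and the members' median minus that of all genes stayed at 0.21, 0.06 and -0.46. With no filter on low counts they were 3 and 4, 2 and 6, and 0 and 27, where more genes were tested. With DESeq2 size factors the YTHDF2-ADAR line had 1 higher. On the compared libraries alone they were 13 and 13, 9 and 14, and 0 and 3, and the spread was then estimated from 6 libraries. DESeq2 gave 7 and 9, 2 and 11, and 3 and 33. At a mean CPM of at least 5, which leaves 58 members, 1 was higher in the YTHDF3-ADAR line. Leaving out 1 library gave 0 to 6 higher and 2 to 6 lower, 0 to 2 and 4 to 7, and 0 to 3 and 21 to 48. In total RNA, the counts of the YTHDF3-ADAR against the YTHDF1-ADAR line were 22 and 0 without normalization factors, 3 higher without the filter, 1 and 0 on the compared libraries alone and 0 lower at a mean CPM of at least 5, with 0 to 10 higher and 0 to 3 lower when 1 library was left out. Against the YTHDF2-ADAR line they were 16 higher without normalization factors, 0 without the filter and on the compared libraries alone, 1 at a mean CPM of at least 5 and 2 lower at a mean CPM of at least 1, with 0 to 7 higher and 0 to 4 lower when 1 library was left out. In the differences between lines, leaving out 1 library gave 0 to 1 member lower in YTHDF3-ADAR than in YTHDF1-ADAR. Beyond what is stated here, the cause was not tested.

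With the replicate number as a block, the counts were 11 and 11, 6 and 11, and 3 and 34. Of the 44 named calls of 22 members, 8 kept their side of the threshold in every alternative, namely RPS2P5 and RPS2P55 in each line, RPS2P46 in the YTHDF2-ADAR line and RPSAP12 in the YTHDF3-ADAR line.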
